A study of Mus musculus with 10 samples.

Results

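The CC chemokine ligands are small secreted proteins, named for a pair of adjacent cysteines, that bind receptors of the CCR family and draw leukocytes along their gradients. Macrophages both make and answer them. In metastatic tissue they are best known for recruiting CCR2-bearing monocytes and retaining the macrophages derived from them. In the mouse most of these genes lie in 2 clusters on chromosome 11. The 10 genes described here are Ccl2, Ccl7, Ccl12 and Ccl8, the monocyte chemoattractant group, Ccl3, Ccl4 and Ccl5, inflammatory chemokines of macrophages and lymphocytes, Ccl6 and Ccl9, a pair of related CCR1 ligands of rodents, and Ccl24, eotaxin-2, which acts on CCR3. They were taken by name, in a choice made with earlier results of these data known. They are 10 of 24 CC ligand genes, and of 24538 genes, in the count files.

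RNA-seq compared metastasis-associated macrophages (MAMs) from lung metastases with resident alveolar macrophages (RAMs) from normal lungs, with 5 libraries of each. All mice were wild type C57BL6/J and aged 8 to 10 weeks. For MAMs, females had received tail vein injections of E0771-LG cells, a syngeneic mouse mammary tumour line, at 6 to 8 weeks of age, and metastases under 1 mm across were dissected at day 11 and pooled from 2 to 4 mice per sample by the sample records. RAMs came from lungs without tumour cells. Both were sorted as large CD45+F4/80+MRC1+LY6C- cells, MAMs as CD11B+CD11C- and RAMs as CD11B-CD11C+, and alpha-amanitin and actinomycin D, which block transcription, were present during digestion of the tissue. The gate and the tumour therefore change together, so a difference between macrophage types and an effect of metastasis cannot be told apart. The 5 samples of a group are numbered in the labels without a statement that they came from separate experiments, and p-values measure the spread between these samples.

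Each library held between 50746305 and 87523247 counts on genes. The sorted types carried most of their marker genes. Of 10 alveolar macrophage markers, which include the sorting gene Itgax (CD11C), 9 were lower in MAMs and none higher. They summed to 410 to 793 CPM, a count scaled by the library's total, in MAMs. In RAMs they summed to 10300 to 12900 CPM, most of it Chil3. Of 14 monocyte-derived and tissue macrophage markers, which include the sorting gene Itgam (CD11B), 10 were higher in MAMs, 1 lower and 3 not called. Of 6 monocyte markers, which include the receptor gene Ccr2 described below and the sorting gene Ly6c2 (LY6C), 6 were higher in MAMs. These totals carry TMM factors, and CPM compare a gene between libraries. FPKM, which also divide by transcript length, are used for ratios between genes and for the order of the ligands per length. Where CPM of different genes stand side by side, the values also depend on length. Of 11571 genes tested, 1766 were called higher in MAMs, 15.3%, and 1745 lower, 15.1%. A call needed an adjusted p under 0.05 (edgeR, quasi-likelihood, adjusted by Benjamini-Hochberg over all genes tested) and a fold change over 2.

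The ligand genes share arrangement as well as family. By GENCODE M21 on GRCm38, Ccl2 (chr11:82035571-82037453), Ccl7 (chr11:82045712-82047525), Ccl12 (chr11:82101845-82103400) and Ccl8 (chr11:82115185-82116799) lie in that order on the plus strand. In the other cluster Ccl5 (chr11:83525778-83530518), Ccl9 (chr11:83572919-83578636), Ccl6 (chr11:83587882-83593087) and Ccl3 (chr11:83647844-83649355) lie on the minus strand and Ccl4 (chr11:83662584-83664683) on the plus strand. Ccl24 stands apart on the minus strand of chromosome 5 (chr5:135569937-135573049). The longest stretch that the transcripts of any 2 of the 10 share exactly is 25 bases, between Ccl6 and Ccl9, against reads of 100 bases. Ccl9 transcripts hold stretches of 50 bases found in 463 other genes, and the other 9 hold none. The RefSeq span of Ccl4 reaches into Ccl3 on the opposite strand, and whether reads were counted by strand is not given in the sources used here, so reads in the shared part are uncertain for both genes.

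Promoter sequences were in the RefSeq table (GRCm38.p6) for 5 of the 10 genes. They are printed because they set members with log2 fold changes above 5 between MAMs and RAMs (Ccl12, Ccl8 and Ccl9) beside the pair with the smallest (Ccl6 and Ccl3). Each is the 250 bases before the annotated start, 5′ to 3′ on the gene's strand, with capitals marking matches to any of 6 motifs on either strand: GGGNNNTTC (NF-kappa B), GAAANNGAA (IRF), TTCNNNGAA (STAT), TGANTCA (AP-1), TTGCNNAA (CEBP) and GAGGAA (PU.1). Ccl12 is chr11:82101595-82101844 and Ccl8 chr11:82114935-82115184, plus strand, and Ccl9 is chr11:83578637-83578886, Ccl6 chr11:83593088-83593337 and Ccl3 chr11:83649379-83649628, minus strand.
Ccl12: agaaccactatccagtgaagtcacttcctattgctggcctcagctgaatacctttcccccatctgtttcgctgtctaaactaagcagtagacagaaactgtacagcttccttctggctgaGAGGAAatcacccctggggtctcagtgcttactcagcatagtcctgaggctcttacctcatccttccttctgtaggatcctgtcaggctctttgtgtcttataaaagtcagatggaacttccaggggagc
Ccl8: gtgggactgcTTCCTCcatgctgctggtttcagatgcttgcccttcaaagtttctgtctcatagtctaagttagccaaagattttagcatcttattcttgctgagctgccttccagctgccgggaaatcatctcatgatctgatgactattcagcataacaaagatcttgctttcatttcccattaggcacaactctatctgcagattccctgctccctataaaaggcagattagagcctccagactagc
Ccl9: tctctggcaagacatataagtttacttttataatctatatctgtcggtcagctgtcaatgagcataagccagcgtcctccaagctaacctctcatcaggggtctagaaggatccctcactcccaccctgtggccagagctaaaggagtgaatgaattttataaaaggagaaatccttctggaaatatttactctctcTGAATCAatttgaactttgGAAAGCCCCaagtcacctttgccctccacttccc
Ccl6: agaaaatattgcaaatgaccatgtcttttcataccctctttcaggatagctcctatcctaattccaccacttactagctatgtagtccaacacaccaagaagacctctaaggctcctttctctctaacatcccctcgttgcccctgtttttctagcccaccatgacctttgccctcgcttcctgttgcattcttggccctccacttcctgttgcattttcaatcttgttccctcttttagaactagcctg
Ccl3: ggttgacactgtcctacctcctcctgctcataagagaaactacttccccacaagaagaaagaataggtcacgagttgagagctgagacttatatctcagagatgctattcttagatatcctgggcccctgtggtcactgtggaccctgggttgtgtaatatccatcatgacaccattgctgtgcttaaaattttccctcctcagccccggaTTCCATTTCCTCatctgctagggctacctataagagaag

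Ccl12 and Ccl8 each held 1 match to the PU.1 motif, at bases -130 to -125 and -240 to -235 from the start. Ccl9 held an AP-1 match at -53 to -47 and an NF-kappa B match at -34 to -26. Ccl3 held an IRF match at -39 to -31 that overlaps a PU.1 match at -33 to -28, and Ccl6 held no match to these letters. The start of Ccl3 used here is that of RefSeq, at base 83649378, outside the GENCODE span that ends at 83649355. The matches are descriptions of the sequence. Among 32851 promoters of the same length 23.3% held the PU.1 letters, 11.8% those of NF-kappa B, 9.56% CEBP, 7.13% IRF, 7.02% STAT and 6.75% AP-1.

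Of the 10 ligand genes 9, all but Ccl6, were called higher in MAMs and none was called lower, where 15.3% of all genes tested were called higher. Of the 9, Ccl8 and Ccl24 reached the mean FPKM of 1 needed for testing in MAMs alone. Their means in RAMs were 0.537 and 0.366 FPKM. All 10 had an adjusted p under 0.05 with the higher mean in MAMs, as had 28.9% of all genes tested. Every MAM library lay above every RAM library for the same 9 genes, which held for 23.7% of all genes tested. The median log2 fold change of the 10 genes was 5.77 and that of all genes tested was -0.02. Since the list was chosen with earlier results known, these shares describe the listed genes and not the whole CC ligand family. An exact permutation test of log2 CPM, two-sided over the 10 libraries, gave p = 0.00794 for each of the 9, the smallest p that 5 against 5 allows, and p = 0.0159 for Ccl6. RNA of a sorted population does not tell more cells expressing a gene from more RNA in each cell.

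**Figure D1:**
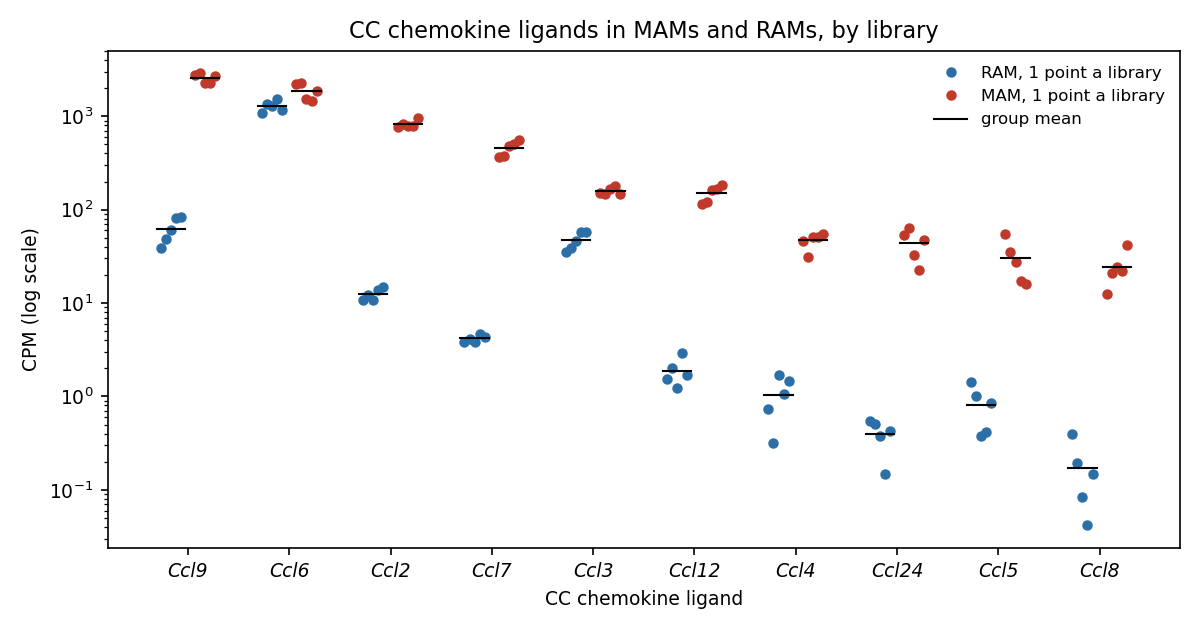
CPM on a log scale for each of the 10 ligands, with 1 point for each MAM (red) and RAM (blue) library and a line at each group mean. The points of the groups meet only for Ccl6, and Ccl9 and Ccl6 are the highest ligands in MAMs on this scale.

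The monocyte chemoattractant group, most of whose products act on CCR2, the receptor of inflammatory monocytes, had log2 fold changes of 6.05 to 7.08. Ccl2, the best known monocyte chemoattractant, stood at 764, 822, 791, 793 and 951 CPM in MAM replicates 1 to 5 and at 10.7, 12.1, 10.9, 13.9 and 14.8 CPM in RAM replicates 1 to 5. The groups were far apart and each was narrow: the highest MAM library was 1.25 times the lowest. The log2 fold change was 6.05 (SE 0.121, edgeR adjusted p = 6.63e-15). Ccl7, which acts on CCR2 and also on CCR1 and CCR3, stood at 367, 379.5, 484, 502 and 552 CPM in MAMs and 3.87, 4.14, 3.87, 4.67 and 4.37 CPM in RAMs. Its log2 fold change was 6.77 (SE 0.143, edgeR adjusted p = 1.1e-14), and its RAM libraries were the least spread of any member, with a coefficient of variation of 8.21%.

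Ccl12, a mouse ligand of CCR2 close to Ccl2 in function, stood at 116, 121, 161, 167 and 183 CPM in MAMs and 1.52, 2.01, 1.24, 2.90 and 1.68 CPM in RAMs, a log2 fold change of 6.32 (SE 0.232, edgeR adjusted p = 5.71e-12). It kept close step with Ccl7: within each MAM library the FPKM of Ccl7 was 1.61 to 1.74 times that of Ccl12, while in RAMs this ratio ran from 1.09 to 1.64. Ccl8, the remaining member of the group, stood at 12.4, 21.2, 24.4, 22.2 and 42.0 CPM in MAMs, and its raw counts in RAM libraries were 23, 13, 4, 2 and 7. The level in MAM replicate 5 was 3.40 times that in MAM replicate 1, and still every MAM library was above every RAM library. The fitted log2 fold change, 7.08 (SE 0.507, edgeR adjusted p = 1.15e-08), was the highest of the 10 with the highest SE, and it rests on few RAM counts.

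**Figure D2:**
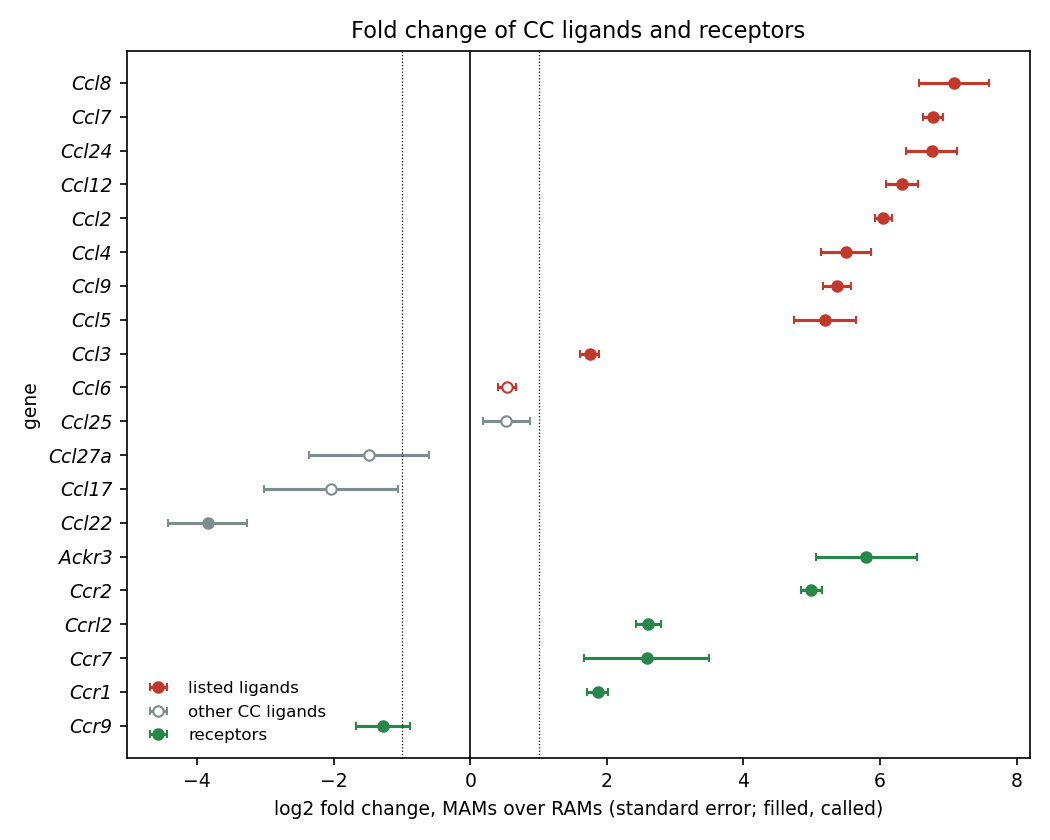
Log2 fold change of MAMs over RAMs with its SE for the 10 listed ligands (red), the 4 other CC ligands tested (grey) and 6 of the receptors tested (green), where filled points were called and dotted lines mark a 2-fold change. Of the 10 ligands 8 lie above 5, while Ccl3 and Ccl6 stand nearer to 0.

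The inflammatory chemokine genes Ccl3, Ccl4 and Ccl5 were less alike. Ccl3, macrophage inflammatory protein 1 alpha, was already well expressed in RAMs, at 35.3, 39.1, 46.0, 58.2 and 57.9 CPM, and stood at 153, 147, 165, 181 and 148 CPM in MAMs. The groups did not overlap, and the difference was 3.36-fold (log2 1.75, SE 0.139, edgeR adjusted p = 3.94e-08). Its neighbour Ccl4, macrophage inflammatory protein 1 beta, was at 46.0, 31.3, 50.9, 50.9 and 55.2 CPM in MAMs and at 0.736, 0.315, 1.68, 1.06 and 1.45 CPM in RAMs. The log2 fold change of Ccl4 was 5.50 (SE 0.368, edgeR adjusted p = 5.34e-09). The balance of the pair differed accordingly: Ccl3 had 2.19 to 3.78 times the FPKM of Ccl4 in MAM libraries and 24.4 to 85.9 times in RAM libraries, with no overlap.

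Ccl5, RANTES, a product of T cells and natural killer cells as well as of macrophages, was the most variable member among MAMs. It stood at 54.8, 35.4, 27.3, 17.2 and 16.0 CPM in MAMs, a spread of 3.42 times from lowest to highest, and at 1.42, 1.01, 0.373, 0.417 and 0.853 CPM in RAMs. The groups did not overlap (log2 fold change 5.19, SE 0.453, edgeR adjusted p = 1.18e-07). Of 11 T and natural killer cell markers in the files 3 were tested, of which 1 was called higher (Cd4, log2 fold change 4.01) and 1 lower (Prf1, -5.28). The whole list summed to 10.4 to 20.5 CPM in MAMs and 12.6 to 18.9 CPM in RAMs. The sums overlapped but were made of different genes. Most of each MAM sum was Cd4, at 6.83 to 15.0 CPM in MAMs and 0.0209 to 2.09 CPM in RAMs. Most of each RAM sum was Prf1, at 10.0 to 12.1 CPM in RAMs and 0.112 to 0.675 CPM in MAMs. In MAM replicate 1, where Ccl5 was highest, the list summed to 11.3 CPM, with Cd8a at 1.81 CPM, the highest of the 10 libraries, Cd3e at 1.99, Cd4 at 6.83 and Nkg7 at 0.427 CPM, and Cd3d, Cd3g, Ncr1 and Gzma, among others, at 0. The part of these cells in the level of Ccl5 was not tested.

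Ccl6 and Ccl9, which lie side by side, were the most abundant members by CPM in MAMs and parted sharply in RAMs. Ccl9, macrophage inflammatory protein 1 gamma, stood at 2770.0, 2884, 2271, 2249 and 2688 CPM in MAMs and 39.3, 48.4, 60.3, 81.4 and 82.5 CPM in RAMs (log2 fold change 5.37, SE 0.205, edgeR adjusted p = 8.44e-12). Ccl6, also known as C10, stood at 2194, 2271, 1541, 1453 and 1859 CPM in MAMs and 1076, 1358, 1288, 1535 and 1168 CPM in RAMs. The Ccl6 ranges overlapped, since RAM replicate 4 was above MAM replicate 4. Its mean was 1.45-fold higher in MAMs with an adjusted p of 0.00218 by edgeR (log2 0.54, SE 0.127), and the fold change was under the 2-fold limit for a call. In FPKM, Ccl9 was 0.550 to 0.674 times Ccl6 in MAM libraries and 0.0152 to 0.0299 times Ccl6 in RAM libraries.

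Ccl24, whose product attracts eosinophils and resting T cells through CCR3 and which is a feature of alternatively activated macrophages, stood at 53.7, 64.3, 32.4, 22.7 and 47.7 CPM in MAMs. The raw counts in RAM libraries were 32, 34, 18, 7 and 20, and the groups did not overlap. The log2 fold change was 6.76 (SE 0.375, edgeR adjusted p = 6.24e-10). Among 7 eosinophil, basophil and mast cell markers none reached the level for testing. Their sum was 0.122 to 6.68 CPM in MAMs and 0.0414 to 0.647 CPM in RAMs, with Prg2 and Mcpt4 at 0 in all 10 libraries. In MAM replicates 1 to 5 these markers summed to 0.122, 3.21, 1.1, 2.33 and 6.68 CPM. The list includes Ccr3 itself, at 0.122, 0.0375, 1.10, 2.30 and 5.545 CPM in the same libraries. The part of eosinophils, basophils and mast cells in the level of Ccl24 was not tested.

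The members with the largest fold changes were at or near the lowest level at which any abundant MAM gene was found in RAMs. On the CPM scale without TMM factors, the mean RAM level was 0.825% of the mean MAM level for Ccl8, 1.06% for Ccl7 and for Ccl24, 1.44% for Ccl12 and 1.75% for Ccl2. Among 85 tested genes above 1000 CPM in MAMs, the lowest such percentage was 1.06%. With 1% of the other group's level subtracted, the log2 fold changes became 10.75 for Ccl7, 9.17 for Ccl8, 9.14 for Ccl24, 7.98 for Ccl12 and 7.26 for Ccl2, and all stayed called. For a gene higher in MAMs the subtraction can only raise the fold, so it is no check of direction. The size of the fold depends on it. The source of the RAM counts was not tested.

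Set against each other per length, the ligands took different orders in the 2 populations. In MAMs the order by mean FPKM was Ccl6 (1315 ± 254, SD, n = 5), Ccl2 (1145 ± 86.3), Ccl9 (791 ± 83.5), Ccl7 (651 ± 108), Ccl12 (393 ± 77.2) and Ccl3 (246 ± 25.5), followed by Ccl4 (90.6 ± 18.1), Ccl5 (87.8 ± 46.7), Ccl8 (70.3 ± 29.8) and Ccl24 (34.5 ± 12.8). Neighbours overlapped in range for Ccl6 and Ccl2, for Ccl9 and Ccl7, and for each step from Ccl4 down to Ccl24. The steps from Ccl2 to Ccl9, and from Ccl7 through Ccl12 and Ccl3 to Ccl4, did not overlap. Of the 10 genes 9 were in the top 10% of all genes tested in MAMs, where Ccl6 ranked 67, Ccl2 77, Ccl9 101 and Ccl7 114. Ccl24 ranked 2159 of 11571.

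In RAMs the order was Ccl6 (893 ± 116 FPKM), Ccl3 (62.1 ± 14.8), Ccl9 (18.4 ± 5.49), Ccl2 (13.7 ± 1.37), Ccl7 (6.07 ± 0.568) and Ccl12 (4.63 ± 1.12), with Ccl5, Ccl4, Ccl8 and Ccl24 at means of 2.39 down to 0.366. Ranges were separate between Ccl6 and Ccl3, Ccl3 and Ccl9, and Ccl2 and Ccl7, and the other neighbours overlapped. Ccl6 ranked 62 of all genes tested in RAMs, close to its rank in MAMs, and Ccl3 ranked 982. Ccl2 ranked 4494, Ccl7 7149, Ccl4 10279 and Ccl24 11071.

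The summed FPKM of the 10 ligands was 4824 ± 272 in MAMs and 1003 ± 129 in RAMs (SD, n = 5), a ratio of 4.81. A single gene carried the RAM sum: Ccl6 made 89.1% ± 1.66 of it and Ccl3 6.18% ± 1.18. In MAMs Ccl6 made 27.2% ± 4.42, Ccl2 23.7% ± 1.21, Ccl9 16.4% ± 1.13, Ccl7 13.5% ± 2.47 and Ccl12 8.18% ± 1.72. As CPM per kb of the GENCODE gene model, an alternative to FPKM, Ccl9 made 21.9% and Ccl2 18.8% in MAMs, so that the order of these 2 depends on the length used.

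**Figure D3:**
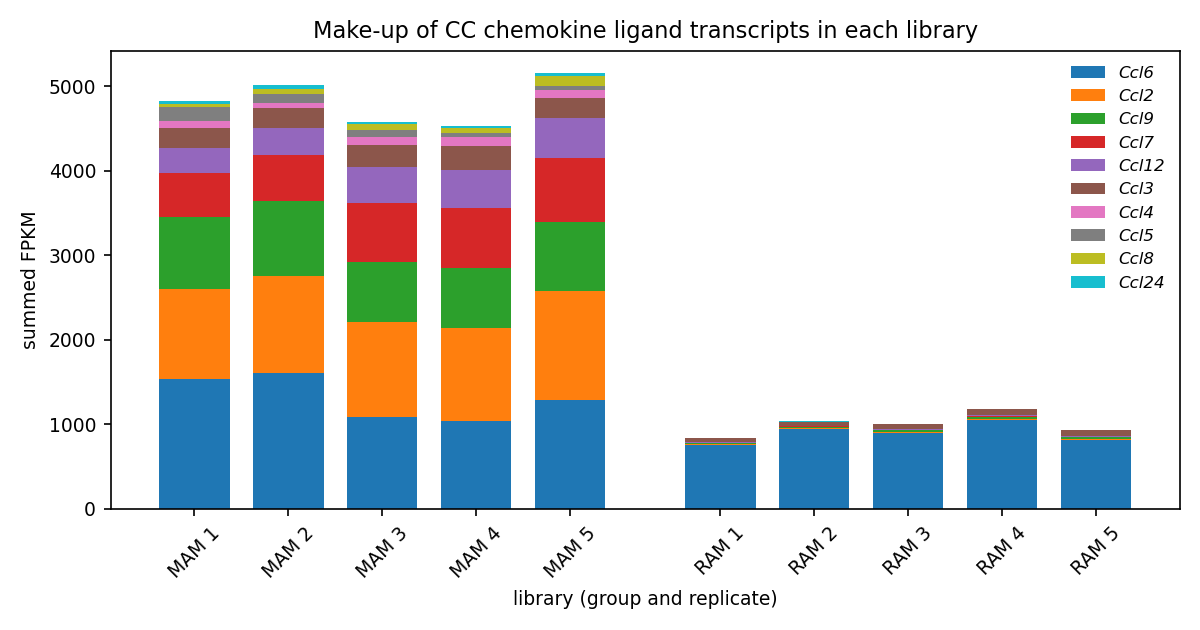
Summed FPKM of the 10 ligands in each library, with bars split by gene. MAM libraries reach 4530 to 5164 FPKM with several large parts, and RAM libraries reach 841 to 1189 FPKM, nearly all of it Ccl6.

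Among the MAM libraries the ligands did not move as one. MAM replicate 5 was the highest for 5 members, Ccl2, Ccl4, Ccl7, Ccl8 and Ccl12, while replicate 2 was the highest for Ccl6, Ccl9 and Ccl24, replicate 1 for Ccl5 and replicate 4 for Ccl3. Ccl2, Ccl7, Ccl12 and Ccl8 were lowest in replicate 1, and Ccl6, Ccl9 and Ccl24 were lowest in replicate 4. Coefficients of variation in MAMs ran from 8.97% for Ccl2 to 52.7% for Ccl5 with a median of 19.7%, next to 19.5% for the median gene tested. In RAMs they ran from 8.21% for Ccl7 to 79.5% for Ccl8 with a median of 32.5%, next to 16.3%. Raw counts in RAM libraries were only 2 to 23 for Ccl8, 7 to 34 for Ccl24 and 21 to 81 for Ccl4. Counting error therefore enters their spread. With 5 libraries these patterns are given without a test.

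**Figure D4:**
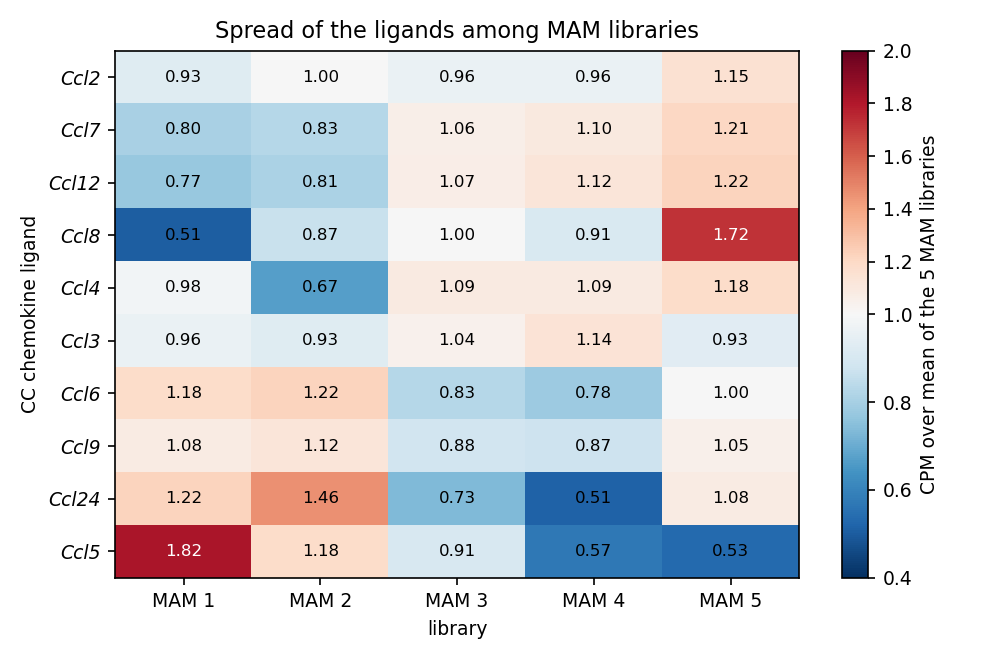
CPM of each ligand in each MAM library divided by its mean over the 5 MAM libraries, with red above and blue below the mean. Ccl8 reaches 1.72 in replicate 5 and Ccl5 1.82 in replicate 1, while Ccl2 stays between 0.927 and 1.15.

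The first cluster on chromosome 11, from Ccl2 to Ccl1, held ligand genes that were nearly silent among genes highly expressed in MAMs. Ccl11, eotaxin-1, lies between Ccl7 and Ccl12 and had 5 to 30 counts in MAM libraries and 0 to 1 in RAM libraries. Ccl1, a ligand of CCR8, ends the first cluster and had 0 to 22 counts in MAMs and 0 to 1 in RAMs. Neither reached the level for testing. In the other cluster Ccl6 had 1285 ± 177 CPM in RAMs, its neighbour Ccl9 62.4 ± 19.3 CPM and Ccl5 0.814 ± 0.436 CPM (SD, n = 5).

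**Figure D5:**
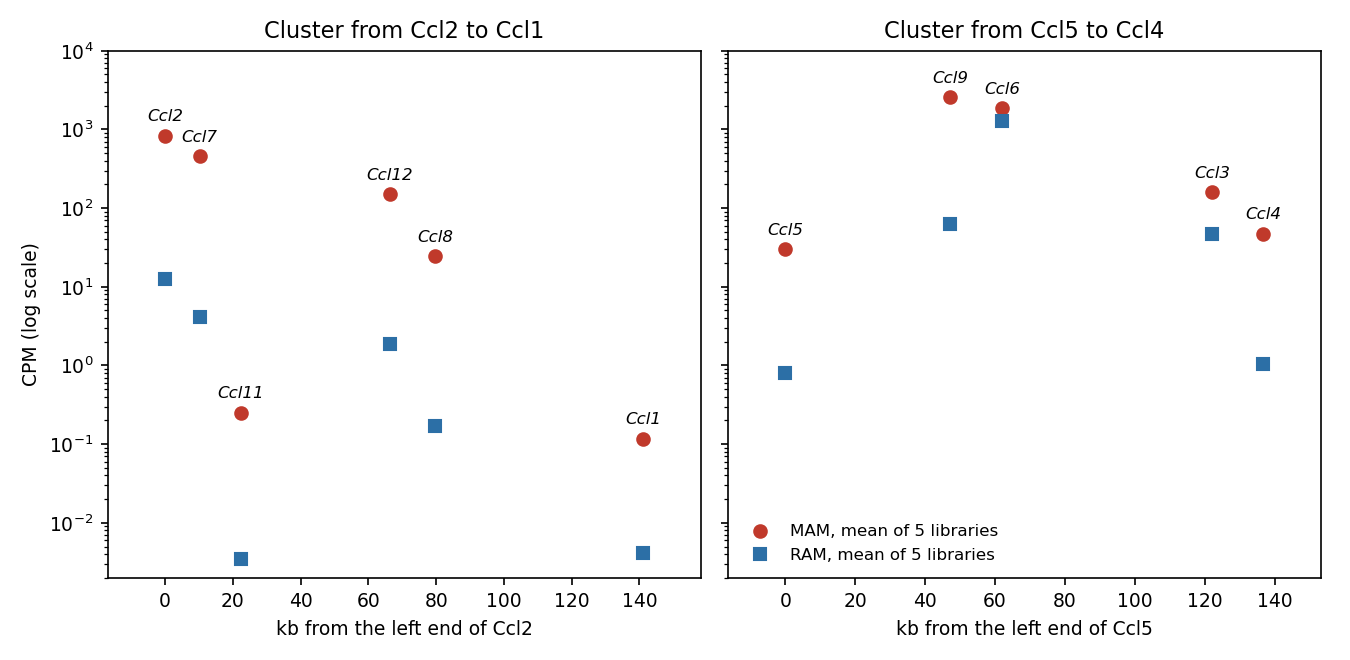
Mean CPM over 5 libraries, on a log scale, of the protein-coding chemokine genes in the 2 chromosome 11 clusters, against distance from the left end of the first gene in kb. Ccl11 and Ccl1 stand below 1 CPM in both groups next to Ccl7 at 457 CPM and Ccl12 at 150 CPM in MAMs.

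The other 14 CC ligand genes gave a different picture. Only 4 were expressed enough for testing, and 1 of these fell, next to 15.1% of all genes tested, while none was called higher. Ccl22, a ligand of CCR4, fell from 14.6, 12.8, 13.6, 29.4 and 29.9 CPM in RAMs to 1.40, 0.206, 0.962, 0.724 and 3.59 CPM in MAMs without overlap (log2 fold change -3.85, SE 0.581, edgeR adjusted p = 4.2e-05). Ccl17, the other CCR4 ligand, was at 3.24, 1.49, 0.973, 4.86 and 2.52 CPM in RAMs and 2.36, 0.637, 0.112, 0.0181 and 0.0575 CPM in MAMs and did not pass (log2 -2.04, SE 0.977, edgeR adjusted p = 0.0898). Without MAM replicate 1, where Ccl17 was highest among MAMs, its log2 fold change was -3.66 with an edgeR adjusted p of 0.00369.

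Ccl22 and Ccl17 are also products of dendritic cells. Of 7 dendritic cell markers 2 were tested: Clec9a was lower in MAMs (log2 -4.26) and Ccr7 higher. Their sum was 3.44 to 13.9 CPM in MAMs and 17.2 to 26.0 CPM in RAMs, most of it Clec9a in RAMs, and their part in Ccl22 was not tested. Ccl25 (0.53, edgeR adjusted p = 0.211) and Ccl27a (-1.49, edgeR adjusted p = 0.166) did not pass, and without MAM replicate 4 Ccl27a had a log2 fold change of -2.29 and an edgeR adjusted p of 0.0489. Both overlap exons of another gene, Elavl1 and Il11ra1. Of the 10 that were not tested, 7 had no count in MAMs and 8 none in RAMs, where a count of 0 allows up to 3 in a library.

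Ccr1 and Ccr2, receptors of several of these ligands, were also higher in the sorted MAM population. Of 16 CC chemokine receptor and binding receptor genes 7 were tested, 6 were called higher and 1 lower, next to 15.3% and 15.1% of all genes tested, and these include receptors of other ligands. Ccr2, the receptor of Ccl2, Ccl7 and Ccl12, stood at 332 to 521 CPM in MAMs and 11.1 to 17.4 CPM in RAMs (log2 4.99, SE 0.157, edgeR adjusted p = 1e-12). Ccr1, bound by Ccl3, Ccl6, Ccl7 and Ccl9 among others, was at 108 to 181 CPM in MAMs and 33.3 to 45.8 CPM in RAMs (log2 1.87, SE 0.150, edgeR adjusted p = 4.51e-08).

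Ccr3, the receptor of Ccl24, was not expressed enough for testing, at 0.0375 to 5.54 CPM in MAMs and 0 to 0.0835 CPM in RAMs. A pair of atypical receptors that lack classical signalling were higher without overlap, Ackr3, which scavenges CXCL12 (log2 5.80, SE 0.742), and Ccrl2, which binds chemerin (log2 2.61, SE 0.185). Ccr9, the receptor of Ccl25, was called lower with a log2 fold change of -1.28 and overlapping groups (edgeR adjusted p = 0.0116). Ccr7, the lymph node homing receptor, was called higher with a log2 fold change of 2.58 (edgeR adjusted p = 0.0265) on levels of 0.134 to 5.81 CPM in MAMs. It did not pass without MAM replicate 2, where it was highest, with 1.58 and an edgeR adjusted p of 0.138, nor, by edgeR, without RAM replicates 1, 3 or 4, with 2.52, 2.39 and 2.33 and adjusted p of 0.0568, 0.0612 and 0.0578.

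Of 31 genes for regulators and processing enzymes of CC chemokines 30 were tested, 12 were called higher and 2 lower, next to 15.3% and 15.1% of all genes tested. Among the 5 largest changes were Maf (6.72), a transcription factor of macrophage differentiation, Irf7 (5.81) and Stat2 (2.76), factors of the interferon response, and Mmp12 (5.04), the macrophage elastase, all higher on the log2 scale without overlap. Irf1, which interferon gamma induces, was higher by 2.36 on the log2 scale. Of the NF-kappa B subunit genes, Relb was called higher (log2 1.84, edgeR adjusted p = 4.69e-06), and Nfkb2 (0.92, edgeR adjusted p = 0.00011) and Rel (0.56, edgeR adjusted p = 0.000295) were higher without overlap at less than a 2-fold change. Nfkbia (1.60) and Nfkbiz (2.54), whose products restrain or modify NF-kappa B and which it induces, were called higher. Nfkb1 (0.07, edgeR adjusted p = 0.634) and Rela (0.23, edgeR adjusted p = 0.0825) did not pass, at 141 ± 24.4 and 82.3 ± 12.9 CPM in MAMs and 134 ± 14.2 and 70.0 ± 3.41 CPM in RAMs (SD, n = 5). The 2 that fell, named after their values were seen, were Cebpd (-1.42) and Klf4 (-1.17).

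Markers of other cells were also compared between the groups. Of 8 stromal and endothelial markers 5 were tested and all 5 were higher in MAMs, with sums of 42.3 to 96.4 CPM in MAMs and 2.13 to 12.3 CPM in RAMs, led by Kdr and Pecam1. The groups overlapped for Pecam1 and Col1a1, among others. Fibroblasts also make Ccl2 and Ccl7. In MAM replicates 1 to 5 the fibroblast genes Col1a1 and Pdgfra stood at 13.1, 0.206, 10.6, 0.271 and 1.90 CPM and at 1.54, 1.95, 8.21, 2.17 and 7.31 CPM. Of 8 neutrophil markers 5 were tested, 3 higher and 1 lower, with overlapping sums of 124 to 312 CPM in MAMs and 139 to 203 CPM in RAMs, led by Csf3r and Mmp8. The 10 genes induced by tissue dissociation, of which 3 were higher and 1 lower, summed to 1830 to 2130 CPM in MAMs and 2050 to 2280 CPM in RAMs. The part of these cells and of handling in the ligand levels was not tested.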

How the data were processed

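RNA from sorted mouse macrophages, 5 MAM and 5 RAM libraries, was sequenced by the authors as paired reads of 100 bases. The authors aligned reads with TopHat2 2.0.13 to GRCm38 (mm10) and deposited raw counts per gene from HTSeq 0.6.1 on UCSC RefGene models, and FPKM from Cufflinks 2.2.1. The strand setting and handling of duplicates are not given in the sources used here.

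Lines that name no gene, 56.5% ± 1.65 of all in MAMs and 63.2% ± 0.898 in RAMs (SD, n = 5), entered neither library sizes nor tests. Counts on genes were 55391447 to 87523247 in MAMs and 50746305 to 72150650 in RAMs. A count of 0 allows up to 3 counts, which covers counting error only: without molecular identifiers, reads are not separate molecules. No 2 libraries of a group held identical counts. Testing was limited to genes whose mean FPKM reached 1 in 1 of the groups and that had any count (11571; 51 more had no count in any library) with edgeR 4.0.16 in R 4.3.3, by its quasi-likelihood test with TMM factors and Benjamini-Hochberg adjustment. SE is the log2 fold change divided by the square root of the F statistic. Called genes had an adjusted p under 0.05 and a fold change over 2. Alternatives were DESeq2 1.42.0, RLE and upper-quartile factors, no filter and edgeR's own filter, limma 3.58.1 on log2(FPKM + 1) and log2(FPKM + 0.1), the replicate number as a block, 1% of the other group's level subtracted, CPM per kb in place of FPKM, and each library left out in turn. The fits were tested on simulated counts with known fold changes. Positions came from GENCODE M21 and promoters from RefSeq, and the figures were drawn with matplotlib 3.10.9.

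The members and gene lists were chosen with earlier results of these data known. Named genes were all members, other CC ligands and receptors that passed the filter, ligands with over 3 counts in a library, the 5 regulators that changed most with Nfkb1, Rela, Irf1 and Irf7, the 2 most abundant markers of a list, and markers at or near 0. Some genes that this rule takes are not reported here. Col1a1, Pdgfra, Cd3e, Cd8a, Nkg7, Krt8, Krt18, Ly6c2, Relb, Nfkb2, Rel, Nfkbia, Nfkbiz, Cebpd and Klf4 were named after their values were seen. Of 3 tested B cell markers 0 were higher and 0 lower. Of 7 tested epithelial and carcinoma cell markers 0 were higher and 6 lower. The 2 most abundant of these, Krt19 and Cdh1, had means of 436 and 131 CPM in RAMs. Krt8, which was not tested, was at 0.615 to 3.31 CPM in MAMs and 0 to 0.2055 CPM in RAMs. Krt18 did not pass (log2 3.93, edgeR adjusted p = 0.0715), at 8.84, 0, 0.201, 0 and 0.0144 CPM in MAM replicates 1 to 5. The part of tumour cells in the ligand levels was not tested.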

Additional observations from a re-analysis of the deposited data

How the results depend on the processing

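Under all 19 alternatives 9 of the 10 ligand genes were called higher and none lower, and Ccl6 kept an adjusted p under 0.05 with a log2 fold change of 0.37 to 0.61. Among these alternatives, the subtraction of 1% could not have turned the direction of a ligand. Upper-quartile factors moved the median log2 fold change of all genes by -0.17, and relative to that shift the ligands kept their sizes. With log2(FPKM + 1) in limma, Ccl8 had 5.47 and Ccl24 4.62, since a pseudocount shrinks the change of genes low in RAMs. Among the other CC ligands, 1 was called higher with no filter, and 2 were called lower with limma on log2(FPKM + 1) or log2(FPKM + 0.1) and with the replicate block, where the second was Ccl17 (-1.93, -3.69 and -3.21). Leaving out 1 library gave 1 to 2 lower, with 2 only without MAM replicate 1 (Ccl17) or MAM replicate 4 (Ccl27a). No receptor was called lower (0) with limma on log2(FPKM + 1). Ccr7 did not pass with limma (0.64 and 1.40) or the block (1.88). The share of Ccl6 in RAMs was 87.2% by CPM per kb. The correlation of deviations was -0.0366 to 0.0294 between same-numbered samples and -0.0357 to 0.0331 between the others. Such values over all genes cannot show whether samples shared an experiment or processing. With the replicate block, 9 of the 10 ligand genes were again called higher and 0 lower. At 2 to 83 counts in RAM libraries, the size of the change of Ccl4, Ccl5, Ccl8 and Ccl24 is limited by depth.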
